A study of Mus musculus with 6 samples.

Results

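Cytochrome P450 enzymes of families 1 to 3 were examined in replicating and quiescent cells of the young mouse liver. Livers of 3 weaned mice aged 3.5 weeks were dissociated and sorted by fluorescence into a GFP-positive fraction, called replicating in the labels, and a GFP-negative fraction, called quiescent. All animals carried the CyclinB1-GFP transgene, so both fractions came from transgenic mice. The promoter that drives the reporter is not given in the sources used here. Each fraction gave 3 Affymetrix arrays, numbered 1 to 3 as biological replicates. Members were the genes whose symbol begins with Cyp1a, Cyp1b, Cyp2 and a letter, or Cyp3a, each read by the probe set with the highest mean; this gave 54 members in 17 subfamilies among 19938 genes. In 38 members the mean of at least 1 group lay above the array medians, and in 16 both group means lay below them. Values are log2 intensities, and each difference subtracts the GFP-negative mean from the GFP-positive mean, with its SE from limma, a linear model that shares information on the spread across genes, with p-values adjusted by Benjamini-Hochberg over all genes.

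P450 enzymes of these families sit in the endoplasmic reticulum, where they oxidise drugs, pollutants, steroids, bile acids and fatty acids. Each needs a heme group and electrons passed on by P450 reductase or cytochrome b5. In the liver many of them are made most strongly by hepatocytes around the central vein, and their genes answer to receptors for foreign compounds: the aryl hydrocarbon receptor (AhR), the constitutive androstane receptor (CAR) and the pregnane X receptor (PXR). In rodents several members also differ between males and females through the pattern of growth hormone secretion.

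The sorted fractions matched their labels: all 10 listed mitosis genes rose in GFP-positive cells, with a median difference of 3.87. The 8 hepatocyte markers had a median difference of -0.14 and none passed the test, with a log2 summed level of 15.75 to 15.84 in GFP-negative and 15.62 to 15.70 in GFP-positive arrays. Summed markers of 3 other liver cell types were also lower in GFP-positive arrays: 7.56 to 7.68 against 7.75 to 8.08 for Kupffer cells, 8.51 to 8.67 against 8.76 to 9.15 for endothelial cells, and 8.40 to 8.55 against 8.76 to 8.93 for stellate cells. The difference was below 0 in 6 of 10 Kupffer cell, 8 of 10 endothelial and 9 of 10 stellate cell markers. Over all genes this share was 55.7%. The other markers lay above 0, and a summed level follows the brightest markers of its list. In both groups 8 of 10 Kupffer cell markers and 3 of 10 stellate cell markers lay below the array medians, against 0 of 10 endothelial markers. Of the 30 markers of these 3 types, 1 passed the test, the Kupffer cell gene Clec4f (-0.68 ± 0.13, adjusted p = 0.032, limma; 0.077 with the replicate number as a block). Markers of 4 further types overlapped between the fractions, with summed levels of 6.70 to 6.86 against 6.71 to 6.82 for cholangiocytes, 7.13 to 7.95 against 7.10 to 7.49 for erythroid cells, 6.16 to 6.67 against 6.37 to 6.47 for lymphoid cells and 6.79 to 7.50 against 6.60 to 6.87 for neutrophils, GFP-negative given before GFP-positive. The part of these markers in the P450 differences was not tested. In such bulk fractions, fewer cells of a type and less RNA per cell cannot be told apart.

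Most P450 members had a lower mean in GFP-positive cells, by a small amount that no single gene carried past the test. The fitted difference was below 0 in 49 of 54 members (90.7%), against 55.7% of all genes, and the median difference was -0.27, a 1.20-fold lower level, against -0.03 over all genes. By limma 0 members passed an adjusted p of 0.05, where 333 of all genes did (1.67%; 310 higher, 1.55%, and 23 lower, 0.115%). At an unadjusted p below 0.05, 11 members were lower (20.4%, against 3.79% of all genes) and 1 was higher (1.85%, against 5.01%). The smallest adjusted p among members was 0.11, for Cyp2c54.

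The 2 fractions did not overlap in 13 members. The GFP-positive arrays all lay below the GFP-negative ones in 12 (22.2%, against 6.98% of all genes) and all above them in 1 (against 6.82%). The 12 were Cyp1a2, Cyp2c50, Cyp2c54, Cyp2c67, Cyp2c68, Cyp2d11, Cyp2d22, Cyp2d37-ps, Cyp2e1, Cyp2j5, Cyp2j6 and Cyp3a11, and the member above was Cyp2r1. In same-numbered pairs of arrays, 23 members were lower in all 3 (42.6%, against 15.3% of all genes). The median over members was -0.33, -0.22 and -0.26 in pairs 1, 2 and 3. Members above the array medians had a median of -0.35, with 34 of 38 below 0, against 58.3% of all genes above the medians, while the 16 dimmer members had a median of -0.07. The part of brightness in this gap was not tested.

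**Figure D1:**
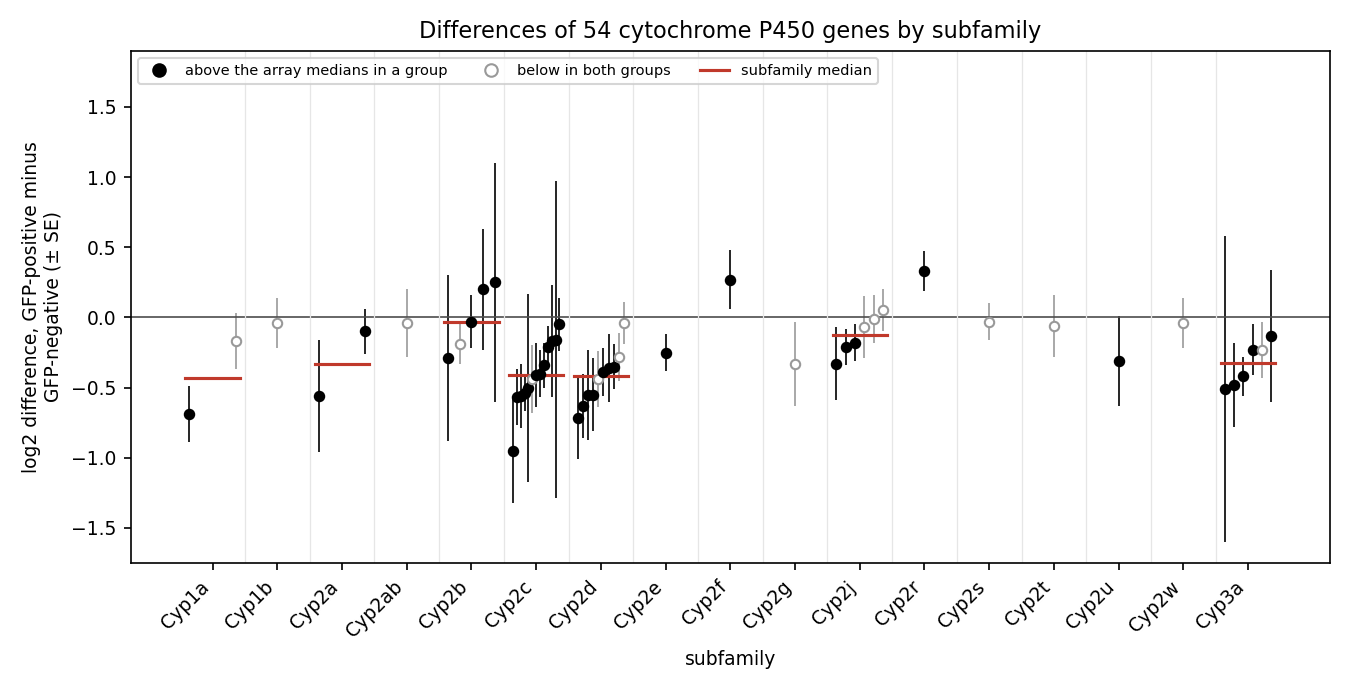
Log2 difference between GFP-positive and GFP-negative arrays (vertical axis, ± SE from limma, n = 3 arrays a group) of 54 members, ordered by subfamily along the horizontal axis. Filled points are members above the array medians in a group, open points those below in both, and red lines subfamily medians. All 13 members of Cyp2c, 10 of Cyp2d and 6 of Cyp3a lie below 0, and Cyp2b lies on both sides.

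The subfamily medians were -0.43 in Cyp1a (2 members), -0.41 in Cyp2c (13), -0.42 in Cyp2d (10), -0.33 in both Cyp2a (2) and Cyp3a (6), -0.13 in Cyp2j (6) and -0.03 in Cyp2b (5). Among the subfamilies with 1 member here, Cyp2g1 (-0.33), Cyp2u1 (-0.31), Cyp2e1 (-0.25), Cyp2t4 (-0.06), Cyp2w1, Cyp2ab1 and Cyp1b1 (each -0.04) and Cyp2s1 (-0.03) lay below 0, and Cyp2f2 (0.27) and Cyp2r1 (0.33) above. Leaving out 1 array at a time moved the median to between -0.59 and -0.25 in Cyp1a, -0.65 and -0.08 in Cyp2a, -0.25 and 0.35 in Cyp2b, -0.59 and -0.32 in Cyp2c, -0.58 and -0.29 in Cyp2d, -0.18 and -0.04 in Cyp2j, and -0.55 and -0.22 in Cyp3a. Of these 7 subfamilies, Cyp2b was the 1 whose median crossed 0. Member ranges overlapped between subfamilies, and differences between subfamilies were not tested.

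Family 1 holds the enzymes induced through AhR, which oxidise polycyclic aromatic compounds. Cyp1a2, the caffeine-metabolising enzyme of pericentral hepatocytes, read 11.38, 11.37 and 11.13 in GFP-negative arrays 1 to 3 and 10.88, 10.16 and 10.76 in the GFP-positive ones. The groups did not overlap, and the lowest array was GFP-positive number 2. The difference was -0.69 ± 0.20, with an adjusted p of 0.20 (limma), and -0.43 without both arrays of number 2. Cyp1a1, barely made in an uninduced liver, read 3.60 to 3.87 in GFP-negative and 3.27 to 4.02 in GFP-positive arrays. Cyp1b1, known mainly from tissues other than the liver, read 3.25 to 3.82 and 3.26 to 3.60. Both lay below the array medians in every group, and Cyp1a2 was the 1 brighter member of the family. The median of the 3 AhR-inducible genes was -0.17, and 0 passed the test.

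In the Cyp2c subfamily, whose liver enzymes metabolise drugs and arachidonic acid, all 13 members had a lower mean in GFP-positive cells (55.7% of all genes did). Of the 13, 8 were lower in all 3 pairs (15.3% of all genes) and 4 did not overlap (6.98% of all genes in that direction). The pair medians were -0.52, -0.13 and -0.40. Cyp2c54 read 11.15, 11.11 and 11.25 in GFP-negative arrays 1 to 3, and 10.55, 10.73 and 10.59 in GFP-positive ones. Its replicates lay close together in each fraction, and the difference was -0.54 ± 0.13 (95% interval -0.84 to -0.25, adjusted p = 0.11, limma). With an intensity trend, array weights or a floor at the array medians, its adjusted p was 0.026, 0.040 and 0.028. It was 0.21 with the replicate number as a block, 0.13 with quantile normalization, 1 with Holm adjustment and 0.13 to 0.36 when 1 array was left out.

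Cyp2c67, from the same cluster of genes, read 10.07, 9.81 and 10.36 in GFP-negative arrays and 9.15, 9.70 and 9.67 in GFP-positive arrays, a difference of -0.57 ± 0.20 (adjusted p = 0.37, limma). Cyp2c50 read 12.01, 11.95 and 12.23 in GFP-negative arrays and 11.35, 11.80 and 11.83 in GFP-positive arrays, a difference of -0.40 ± 0.17 (adjusted p = 0.52). In both genes the fractions were apart, with the smallest pair difference in number 2 (-0.11 and -0.15). Cyp2c68, named after its values were seen, had the same pattern, with pair differences of -0.70, -0.23 and -0.74. Cyp2c37 and Cyp2c29, both pericentral, also differed least in number 2, by -0.07 and -0.03, against -0.32 and -0.85 for Cyp2c37 and -0.51 and -0.49 for Cyp2c29 in numbers 1 and 3.

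Cyp2c38, an arachidonic acid epoxygenase, had a difference of -0.95 ± 0.37, the farthest from 0 among members over the 6 arrays. Without GFP-negative number 1 it was -0.51, nearer to 0 than that of Cyp1a2 (-0.65), and without GFP-negative number 3 it was -1.30. It read 9.13, 8.05 and 7.54 in GFP-negative arrays and 7.79, 6.89 and 7.19 in GFP-positive arrays. GFP-negative number 3 lay below GFP-positive number 1, so the fractions overlapped, although each pair was lower in the GFP-positive array (-1.34, -1.16 and -0.35). Its adjusted p was 0.46, and 0.072 with the replicate number as a block (limma). Cyp2c55, inducible through CAR and PXR, read 7.21, 6.81 and 8.09 in GFP-negative arrays and 6.68, 6.81 and 8.09 in GFP-positive arrays. Its values differed between fractions in number 1 alone. Of the remaining members, Cyp2c70, which makes muricholic acids, differed by -0.21 ± 0.15 and was level in number 2 (0.00), and Cyp2c66 and the dim Cyp2c65 differed by -0.05 and -0.44. Members of this subfamily are close in sequence, and probe sets may take up transcripts of a neighbouring gene, so values of single Cyp2c genes are uncertain to that extent.

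Cyp2d members, relatives of the human drug-metabolising CYP2D6, were lower on average in GFP-positive cells in 10 of 10 (55.7% of all genes). In all pairs 6 of them were lower (15.3% of all genes). The 7 above the array medians had a median of -0.55. The pair median over the 10 was -0.53 in number 1, -0.91 in number 2 and -0.13 in number 3, an order unlike that of Cyp2c, where number 2 had the smallest. Without both arrays of number 2 the median was -0.21 in Cyp2d and -0.53 in Cyp2c. Cyp2d9, the male-biased testosterone hydroxylase, read 9.33, 8.72 and 8.68 in GFP-negative and 8.69, 7.53 and 8.33 in GFP-positive arrays, with 1 GFP-positive array just above the lowest GFP-negative one. Its difference was -0.72 ± 0.29 (adjusted p = 0.49, limma). Cyp2d10 read 9.82, 9.51 and 8.88 against 9.02, 8.57 and 8.72 in GFP-positive arrays, a difference of -0.63 ± 0.23 (adjusted p = 0.42). Cyp2d26 read 11.83, 11.95 and 11.14 against 11.59, 10.97 and 11.26, and its pair 3 went the other way (0.13). Of the others, Cyp2d40 and Cyp2d13 each differed by -0.55, with number 3 above 0 (0.29 and 0.32), and Cyp2d22 and the pseudogene Cyp2d37-ps differed by -0.39 and -0.35 without overlap. The dim Cyp2d11, Cyp2d12 and Cyp2d34 differed by -0.44, -0.28 and -0.04. The subfamily therefore had 1 pair, number 2, with wide differences and 1, number 3, with members on both sides of 0.

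Members known for their place in the liver lobule were read side by side. Of 8 listed pericentral P450 genes, 7 were measured. All 7 were lower in the GFP-positive array of every pair (15.3% of all genes were), with a median of -0.41 and -0.50 without number 2. Of the 7, 0 passed the test and 5 did not overlap (6.98% of all genes, and 8.93% of genes above the array medians, did so in that direction). The pericentral list was chosen with earlier results of these data known, so its direction is a description. Among the 8 hepatocyte markers, all 8 lay below 0 and 4 were lower in every pair. Cyp2e1, the ethanol-oxidising enzyme, read 13.04, 12.93 and 12.89 in GFP-negative arrays and 12.71, 12.77 and 12.62 in GFP-positive arrays. The fractions did not overlap, but the difference was only -0.25 ± 0.13 (adjusted p = 0.65, limma). Cyp2f2, which activates naphthalene and is made by periportal hepatocytes, read 10.86, 11.53 and 10.70 in GFP-negative and 11.40, 11.20 and 11.29 in GFP-positive arrays. It was higher in GFP-positive cells in numbers 1 and 3 (0.54 and 0.59) and lower in number 2 (-0.33), and the difference was 0.27 ± 0.21 (adjusted p = 0.84).

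**Figure D2:**
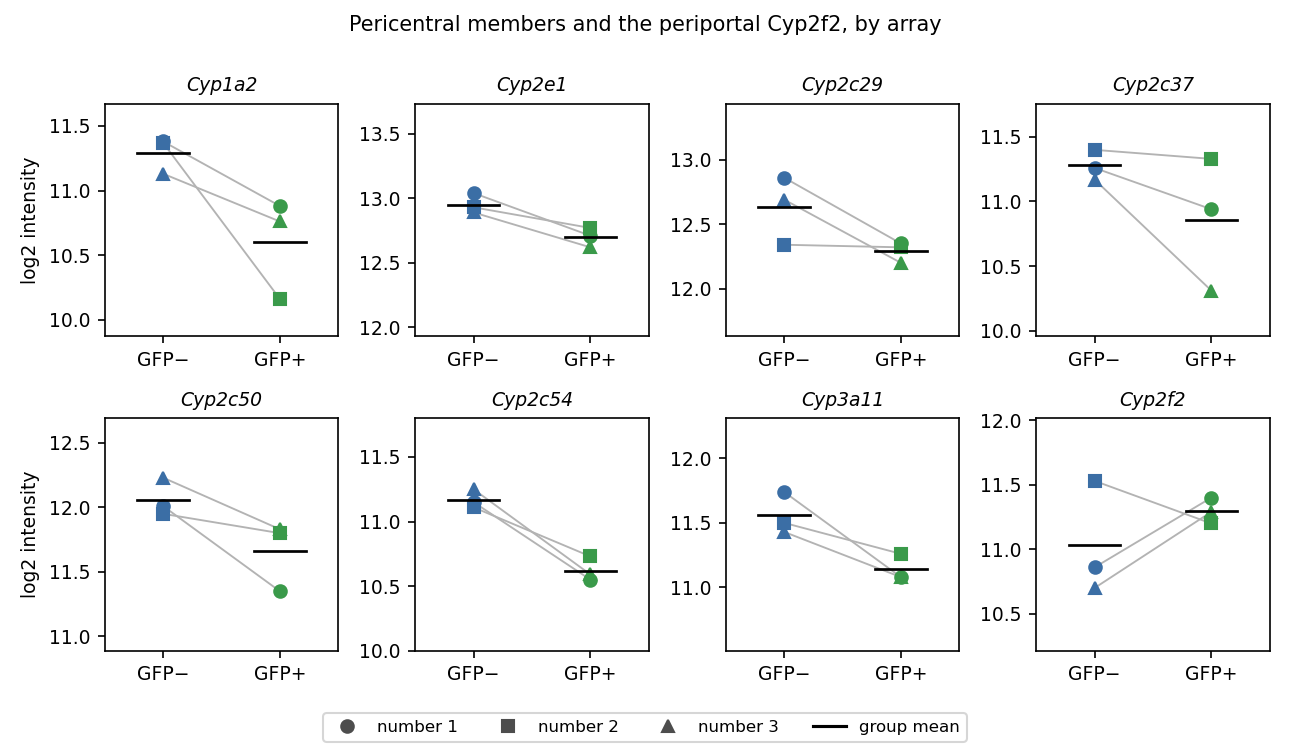
Log2 intensity (vertical axes, each panel with its own range) of 7 pericentral members and the periportal Cyp2f2 in GFP-negative (blue) and GFP-positive (green) arrays; symbols mark the array number, grey lines join same-numbered arrays, and black bars are means of n = 3. Every line of the 7 pericentral members slopes down, by 0.03 at the least in Cyp2c29 number 2, while 2 of 3 lines of Cyp2f2 slope up.

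Cyp2a and Cyp2b genes lie side by side on chromosome 7. Cyp2a12, a steroid hydroxylase, read 11.22, 11.46 and 11.01 in GFP-negative and 11.21, 10.96 and 11.22 in GFP-positive arrays. Its fractions overlapped, and the difference of -0.10 ± 0.16 turned to 0.09 without both arrays of number 2. Cyp2a22 read 8.45, 8.99 and 7.14 against 7.70, 7.89 and 7.31, lower in pairs 1 and 2 and higher in pair 3. Cyp2b10, the classical target of CAR, read 7.49, 8.63 and 6.78 in GFP-negative arrays and 7.87, 8.37 and 7.27 in GFP-positive arrays. Its order of numbers was the same in both fractions, with 2 highest and 3 lowest, and the difference was 0.20 ± 0.43. The other members, Cyp2b23 and the dim Cyp2b19, a gene of the skin, differed by -0.03 and -0.19.

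Cyp2b9 and Cyp2b13, female-biased genes of the adult liver, are shown by the 250 bases before their starts (GRCm38.p6, RefSeq), because these differ at only 2 positions. Both genes had number 2 highest and number 3 lowest in each fraction, an order that Cyp2b10 also had. A link between this order and the sequences was not tested. Capitals mark the bases that differ, T48C and C104T, counted from the upstream end with the base of Cyp2b9 given before that of Cyp2b13. The identity of the 2 stretches was 99.2%.
Cyp2b9, chr7:26173159-26173408, plus strand: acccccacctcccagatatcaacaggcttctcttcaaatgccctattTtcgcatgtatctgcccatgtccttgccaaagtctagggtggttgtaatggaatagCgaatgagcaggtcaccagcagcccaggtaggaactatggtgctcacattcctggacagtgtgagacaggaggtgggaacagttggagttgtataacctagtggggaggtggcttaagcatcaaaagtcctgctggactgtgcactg
Cyp2b13, chr7:26061245-26061494, plus strand: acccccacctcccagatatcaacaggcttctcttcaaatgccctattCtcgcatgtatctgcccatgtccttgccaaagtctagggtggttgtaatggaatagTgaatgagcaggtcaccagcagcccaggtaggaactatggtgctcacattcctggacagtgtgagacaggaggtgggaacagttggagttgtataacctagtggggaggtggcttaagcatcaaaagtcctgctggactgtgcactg

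Cyp2b9 read 7.83, 9.30 and 5.70 in GFP-negative arrays and 8.40, 8.82 and 6.35 in GFP-positive arrays. Number 3 was low in both fractions, 1.47 below the nearest of the other 4 arrays. Cyp2b13 read 4.24, 6.09 and 4.09 in GFP-negative arrays and 4.91, 5.32 and 3.31 in GFP-positive arrays. Its numbers stood in the same order as those of Cyp2b9, with number 1 close to number 3 in GFP-negative cells. The differences, 0.25 ± 0.85 and -0.29 ± 0.59 (adjusted p = 0.97 and 0.95, limma), were smaller than the spread between replicates. Transcripts of related genes may bind each other's probes, but the identity of these transcripts was not computed.

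Cyp2j enzymes turn arachidonic acid into epoxides. Cyp2j5, the member of liver and kidney, read 11.62, 11.65 and 11.64 in GFP-negative and 11.42, 11.43 and 11.51 in GFP-positive arrays. The fractions were apart by a small and even step, -0.18 ± 0.13 (adjusted p = 0.80, limma). Cyp2j6, named after its values were seen, also did not overlap (-0.21 ± 0.13). Cyp2j9 read 5.15, 5.07 and 4.64 against 4.96, 4.02 and 4.90, and it turned to 0.03 without both arrays of number 2. The other 3 members, Cyp2j11, Cyp2j12 and Cyp2j13, lay below the array medians, with differences of -0.07, 0.05 and -0.01.

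Cyp2r1, which carries out the liver step of vitamin D activation, was the 1 member whose GFP-positive arrays all lay above the GFP-negative ones. It read 6.69, 6.75 and 6.72 in GFP-negative arrays and 7.03, 7.24 and 6.89 in GFP-positive arrays, a difference of 0.33 ± 0.14 (95% interval 0.02 to 0.65, adjusted p = 0.53, limma). Cyp2u1, a fatty acid hydroxylase, read 5.28, 4.43 and 5.42 against 4.45, 4.34 and 5.40, with its difference in number 1. The 4 members known mainly from other tissues, Cyp1b1, Cyp2g1 of the olfactory mucosa, Cyp2s1 of epithelia and Cyp2w1 of the gut and tumours, all lay below the array medians, with a median of -0.04 and 0 passing the test. Cyp2ab1 (2.92 to 3.76 over the 6 arrays) and Cyp2t4 (2.92 to 3.88) were as dim.

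Cyp3a genes encode the main drug- and steroid-oxidising enzymes of the liver, and all 6 members had a lower mean in GFP-positive cells (55.7% of all genes did). Cyp3a11, the abundant PXR target, read 11.74, 11.50 and 11.43 in GFP-negative arrays and 11.08, 11.26 and 11.08 in GFP-positive arrays. The fractions did not overlap, and the difference was -0.42 ± 0.14 (95% interval -0.74 to -0.09, adjusted p = 0.36, limma). Across the 4 listed targets of CAR or PXR (Cyp2b10, Cyp2c29, Cyp2c55 and Cyp3a11) the median was -0.26, and 0 passed the test. Cyp3a25 read 11.58, 11.28 and 11.85 against 11.37, 11.14 and 11.50, lower in every pair but overlapping. Cyp3a44, a female-biased gene, read 9.20, 9.42 and 8.90 in GFP-negative and 8.47, 9.45 and 8.17 in GFP-positive arrays. It was lower in numbers 1 and 3 (-0.73 and -0.74) and level in number 2 (0.03). Cyp3a57 lay below the array medians in both groups (-0.23 ± 0.20).

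Cyp3a16, a form of the young liver that lasts longer in females, read 3.65, 7.84 and 3.92 in GFP-negative arrays and 3.82, 6.55 and 3.51 in GFP-positive arrays. Number 2 was high in both fractions, 2.63 above the nearest other array, and the other 4 arrays lay below their medians. The upstream stretches of Cyp3a16, Cyp3a44 and Cyp3a11 are shown because the first 2 are close in sequence and unlike in the spread of their arrays. A link between a base of these stretches and the spread was not tested. Capitals mark TATAAA and the motif CAAAGTCCA, a binding motif of the liver factor HNF4; in Cyp3a44 the aligned stretch, also in capitals, carries C7A, counted from 1 at the start of the motif with the base of Cyp3a16 given before that of Cyp3a44.
Cyp3a16, chr5:145469724-145469973, minus strand: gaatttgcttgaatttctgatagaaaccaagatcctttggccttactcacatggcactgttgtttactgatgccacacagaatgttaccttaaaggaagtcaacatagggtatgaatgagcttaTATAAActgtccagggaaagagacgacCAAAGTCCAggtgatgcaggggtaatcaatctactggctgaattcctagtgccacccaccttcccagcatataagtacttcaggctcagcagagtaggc
Cyp3a44, chr5:145805875-145806124, minus strand: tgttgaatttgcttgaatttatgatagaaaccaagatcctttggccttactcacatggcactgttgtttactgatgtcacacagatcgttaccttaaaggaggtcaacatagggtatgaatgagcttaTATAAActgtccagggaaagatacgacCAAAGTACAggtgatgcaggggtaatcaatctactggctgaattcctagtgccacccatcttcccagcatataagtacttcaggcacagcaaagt
Cyp3a11, chr5:145879855-145880104, minus strand: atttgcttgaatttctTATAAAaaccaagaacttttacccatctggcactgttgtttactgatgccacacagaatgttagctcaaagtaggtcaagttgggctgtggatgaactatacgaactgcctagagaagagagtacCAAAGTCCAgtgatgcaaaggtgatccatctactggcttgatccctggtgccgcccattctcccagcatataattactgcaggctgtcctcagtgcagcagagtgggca

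Cyp3a16 shared 92.9% of aligned bases with Cyp3a44 and 76.6% with Cyp3a11, and Cyp3a44 shared 72.5% with Cyp3a11. The HNF4 motif lay 99 to 91 bases before the start in Cyp3a16 and 109 to 101 bases before it in Cyp3a11. Over the 45 members with an entry among 32851 RefSeq promoters, read on both strands, CAAAGTCCA was present in 6 (13.3%, against 0.384% of all promoters): Cyp2c65, Cyp2c67, Cyp2c68, Cyp2c70, Cyp3a11 and Cyp3a16. These members are neighbours and relatives in sequence, so they are not 6 independent cases. TATAAA was present in 21 members (46.7%, against 12.4%), CCAAT in 17 (37.8%, against 33.8%), and GCGTG, the AhR core, in 9 (20.0%, against 28.2%). The HNF1 motif and the D-box TTATGTAA were found in 0 of the 45, against 0.371% and 0.819% of all promoters. None of the motifs lies within another. A member counted if any of its listed windows held the motif. The shares of all promoters count single windows, so member shares and promoter shares are not like for like. These matches describe letters in the window of 250 bases.

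In 5 members the arrays split by number rather than by fraction: both arrays of 1 number lay beyond the other 4 by at least 1 log2 unit. This criterion was set after the values were seen. It was met by 9.26% of members and 0.166% of all genes, or 13.2% of the 38 members and 0.273% of all genes above the array medians. Beside Cyp3a16 and Cyp2b9 these were Cyp2c39, Cyp3a13 and Cyp2c23, named after their values were seen. Cyp2c39, a retinoic acid hydroxylase, read 12.14, 11.71 and 8.03 in GFP-negative arrays and 11.76, 11.42 and 8.24 in GFP-positive arrays. Number 3 was lower by 3.18 than any other array in both fractions. Cyp3a13 read 9.10, 9.06 and 7.42 against 8.73, 8.91 and 7.54, again with number 3 low. Cyp2c23, an epoxygenase also called Cyp2c44, read 8.11, 9.86 and 10.42 against 7.62, 9.15 and 10.11, with number 1 low. Low numbers thus differed from gene to gene.

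**Figure D3:**
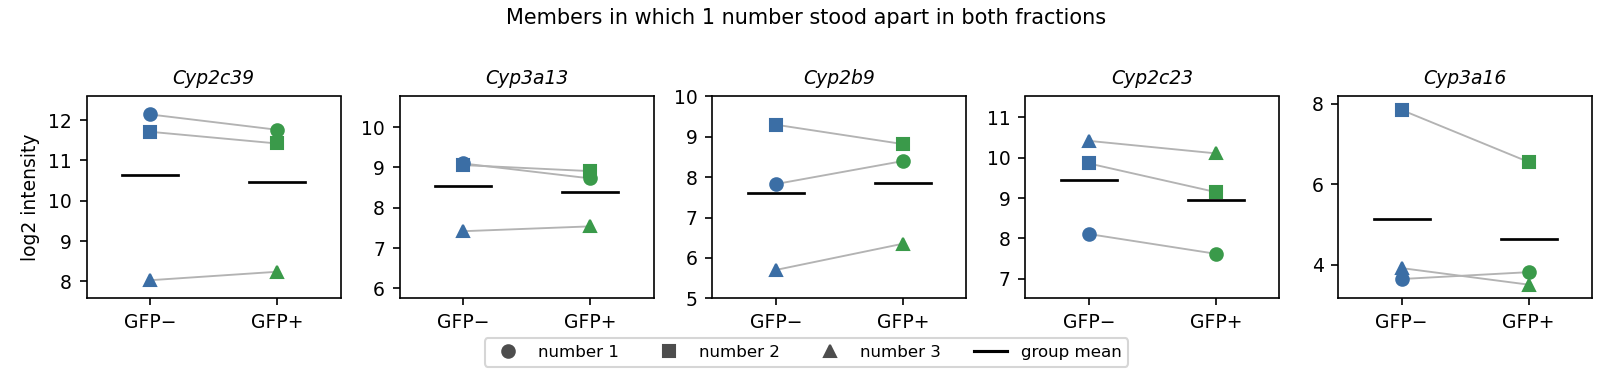
Log2 intensity (vertical axes, each panel with its own range) of 5 members in GFP-negative (blue) and GFP-positive (green) arrays; symbols mark the array number, grey lines join same-numbered arrays and black bars are means of n = 3. Number 3 lies low in Cyp2c39, Cyp3a13 and Cyp2b9, number 1 low in Cyp2c23 and number 2 high in Cyp3a16, in both fractions.

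Among the female-biased list, 4 of 9 genes were measured (Cyp2b9, Cyp2b13, Cyp3a16 and Cyp3a44), and number 2 was highest in both fractions in all 4. The sex-linked Xist was high in number 2 (9.03 in the GFP-negative array, 9.80 in the GFP-positive one) and 3.73 to 4.04 in the other arrays, and Eif2s3y, on the Y chromosome, was low there (1.98 and 2.24, against 6.78 to 7.31). Number 2 was taken to be 1 mouse, so its sex and the mouse itself cannot be told apart, and no test was made. Cyp2d9, the male-biased member, was lowest in number 2 of the GFP-positive fraction (7.53), while number 3 was lowest in the GFP-negative fraction (8.68, against 8.72 in number 2).

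Over the 38 members above the array medians, deviations of same-numbered arrays from their group means correlated by 0.81, 0.79 and 0.86 for numbers 1, 2 and 3, and by 0.43, 0.48 and 0.56 without the 5 members set apart. Over all genes, including those below the array medians, the correlations were 0.20, 0.06 and -0.05. Over all genes above the medians they were not computed, so the 2 sets of correlations are not like for like. They run across genes, which are not independent replicates. The range over the 3 numbers exceeded the difference between fractions in 23 of the 38 (60.5%). That share was not computed over all genes, so it does not set the members apart from other genes. The numbers stood in the same order in both fractions in 11 of 38 (28.9%), against 16.5% of all genes above the medians.

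**Figure D4:**
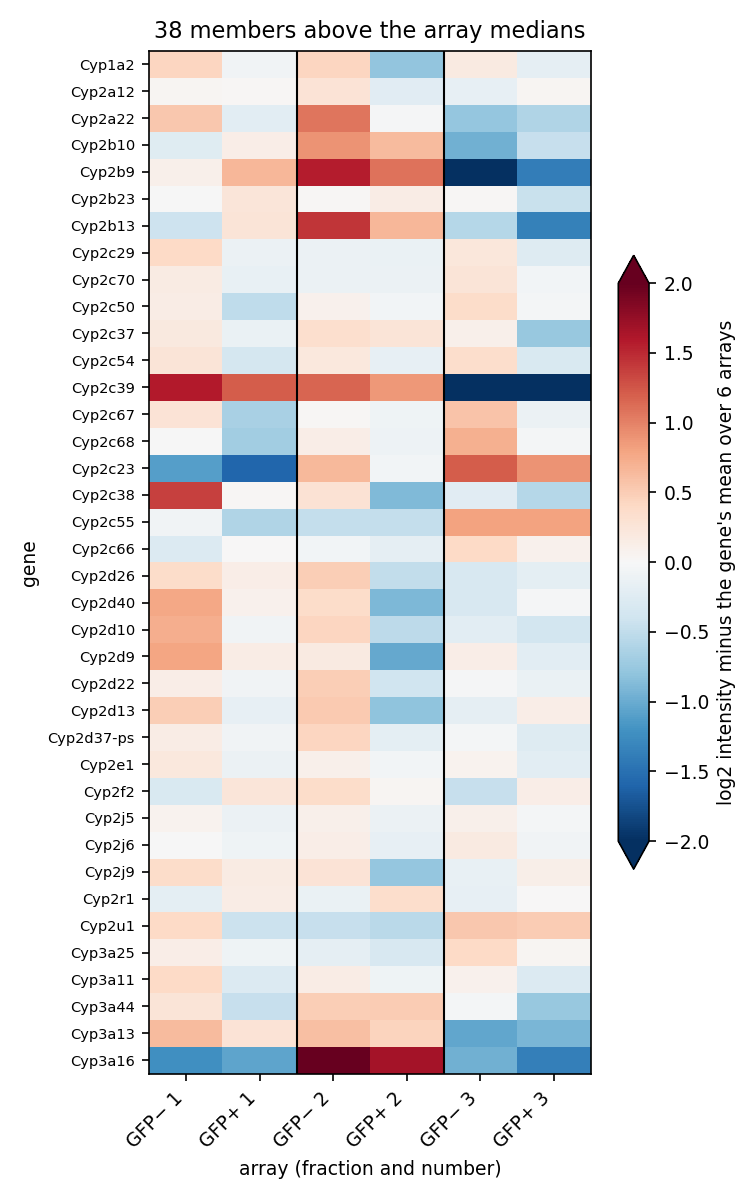
Deviation of each array's log2 intensity from the gene's mean over 6 arrays (colour, cut at 2.0 in either direction) for the 38 members above the array medians (rows), with arrays grouped by number and the GFP-negative array on the left of each pair (columns). Cyp2c39, Cyp2b9 and Cyp3a16 keep the sign of their colour within a number across both fractions, and 34 of 38 rows have a lower mean over the GFP-positive arrays.

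Genes that serve the P450 enzymes had small differences too, and 0 of the 37 measured partner genes passed the test. Of 6 genes listed as electron donors and related proteins, 5 were measured: Cyb5a, Cyb5b, Cyb5r3, Pgrmc1 and Pgrmc2. The gene of P450 reductase, Por, was not matched, so the main donor is missing here. All 5 lay below 0 (55.7% of all genes did), with a median of -0.36 and -0.29 without both arrays of number 2. Cyb5b, a cytochrome b5 of the mitochondrial outer membrane, read 8.75, 8.48 and 8.70 in GFP-negative and 8.32, 7.85 and 8.22 in GFP-positive arrays, without overlap (-0.52 ± 0.16, adjusted p = 0.28, limma). Of 7 measured heme synthesis genes all lay below 0 (55.7% of all genes did), with a median of -0.33. The pair medians were -0.29, -0.78 and -0.06, and without number 2 the median was -0.14. Alas1, the rate-limiting enzyme of that pathway, read 9.39, 8.61 and 9.11 against 8.80, 7.26 and 8.61, lowest in GFP-positive number 2 (-0.81 ± 0.37, adjusted p = 0.59). That array was also the lowest for Cyp1a2 and for Cyp2d9.

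Receptors for foreign compounds and their partners had a median of -0.21, and -0.03 without number 2, with 6 of 8 below 0 (55.7% of all genes). Ahr, the receptor upstream of Cyp1a2, read 7.02, 7.01 and 7.11 in GFP-negative arrays and 6.36, 6.24 and 6.60 in GFP-positive arrays. Its fractions were apart in all pairs, and the difference of -0.65 ± 0.14 had an adjusted p of 0.070 (limma). The 11 measured liver transcription factors had a median of -0.13, with Foxa3 the farthest from 0 (-0.39 ± 0.19, adjusted p = 0.62). The 6 genes of growth hormone signalling had a median of -0.12, with pair medians of -0.02, -0.35 and 0.03, and among them Jak2 was the farthest from 0, with 5.30, 6.32 and 5.39 in GFP-negative and 6.07, 6.14 and 6.10 in GFP-positive arrays (0.43 ± 0.25, adjusted p = 0.71).

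**Figure D5:**
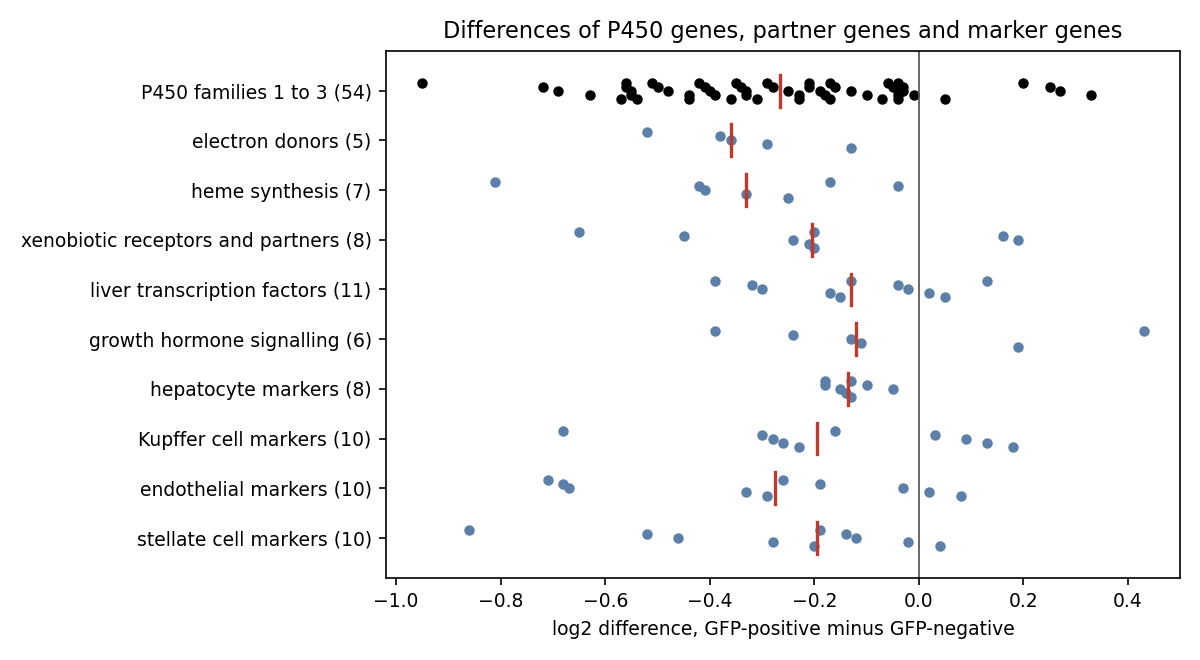
Log2 difference, GFP-positive minus GFP-negative (horizontal axis), of each measured gene (points) in 10 lists (rows, with the number of genes in brackets); red ticks are medians and the vertical line is 0. The P450 median is -0.27. The list of electron donors, which also holds Pgrmc1 and Pgrmc2, has a median of -0.36, the heme synthesis genes -0.33 and the hepatocyte markers -0.14.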

How the data were processed

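RNA of sorted GFP-positive and GFP-negative liver cells (10 ng per sample, 3 arrays a group) was amplified and biotin-labelled, per the labels' protocols. The deposited intensity values were made by the authors with RMA, per the submitters' processing notes; its version is not given in the sources used here. They are on a linear scale (1.62 to 15836, array medians 24.3 to 26.7), so log2 was taken, with no further normalization. The labels do not say whether cells were purified by other markers. The number of arrays limits the precision.

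Of 35512 probe sets, 21789 had 1 gene symbol in the platform annotation, 1621 several and 12102 none; 21698 symbols were updated through Entrez identifiers with RefSeq names (GRCm38.p6). A single probe set per gene, that of highest mean, was kept, and genes known only from 5 shared P450 probe sets were not analysed here as genes. Limma 3.58.1 (R 4.3.3) was fitted to all 19938 genes with the fraction as the single term (4 residual and 5.44 prior degrees of freedom), with no low filter. On simulated data the fit called 8% of 50 changes of 0.5 log2 units, 54% of those of 1 and 96% of those of 2. With the replicate number as a block the shares were 0%, 22% and 92%, but the simulated arrays held no effect of number. A change of 0.5 was thus mostly missed, so a member that did not pass is not shown to be unchanged.

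The members and lists were chosen with earlier results of these data known. Named are the member with the highest mean and the one with the largest difference in each subfamily, members of the subset lists, the 5 largest differences and smallest adjusted p-values, and in each pathway list the gene farthest from 0; other members were named after their values were seen. The numbers were taken to pair arrays of 1 mouse, since each of the 3 livers was sorted into both fractions, per the design text. Genes of the sex chromosomes also set number 2 apart in both. Deviations of same-numbered arrays correlated by 0.20, 0.06 and -0.05 over all genes, and those of unlike numbers by -0.19 to 0.10. These correlations do not tell numbers 1 and 3 apart. Upstream sequences were taken from RefSeq for 45 of 54 members, and protein identity was not computed here. Alternatives were the replicate block, an intensity trend, array weights, quantile normalization, median centring, a low filter, a floor at the array medians, other thresholds and leaving out arrays.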

Additional observations from a re-analysis of the deposited data

How the results depend on the processing

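The test over all genes called 310 up and 23 down in GFP-positive cells. The number lower was 0 with Holm adjustment (118 higher), 53 with array weights, 13 with median centring, 38 with quantile normalization, 46 at an adjusted p below 0.1 and 9 without both arrays of number 2; leaving out 1 array at a time gave 6 to 29, the lowest without GFP-negative number 1. The replicate block called 327 genes up and 28 down, and 0 P450 members passed in either direction; the block changed no call among members and ended that of the Kupffer cell marker Clec4f (adjusted p = 0.077). The number of P450 members lower went from 0 to 1, Cyp2c54, with array weights (-0.57; 0.266% of all genes were called lower in that fit), a floor at the array medians (-0.54; 0.135%) and an intensity trend (-0.54; 0.115%). The P450 median of -0.27 was -0.17 with the floor, -0.33 with the low filter, -0.35 over members above the array medians and -0.30 to -0.22 when 1 array was left out.

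Signs of small differences turned. With array weights Cyp1b1 was 0.01, Cyp2b9 -0.01 and Cyp2t4 0.13. With the floor Cyp1a1, Cyp1b1, Cyp2ab1, Cyp2s1, Cyp2t4 and Cyp2w1, all dim, were 0.03. Without both arrays of number 2, Cyp1a1 was 0.04, Cyp2a12 0.09 and Cyp2j9 0.03. When 1 array was left out the ranges crossed 0 for Cyp2a12 (-0.21 to 0.01), Cyp2b13 (-0.70 to 0.35), Cyp2g1 (-0.58 to 0.00), Cyp2w1 (-0.20 to 0.05), Cyp3a16 (-1.47 to 0.84), Cyp1b1 (-0.17 to 0.11), Cyp2ab1 (-0.24 to 0.17), Cyp2b10 (-0.22 to 0.70), Cyp2b9 (-0.71 to 1.09), Cyp2c55 (-0.62 to 0.19), Cyp2s1 (-0.08 to 0.02) and Cyp2t4 (-0.28 to 0.20). Leaving out 1 array also moved several named differences by over 1.5 times without a change of sign: Cyp2a22 (-1.09 to -0.16), Cyp2c37 (-0.65 to -0.14), Cyp2c50 (-0.49 to -0.25), Cyp2c38 (-1.30 to -0.51), Cyp2d9 (-0.97 to -0.39), Cyp2d26 (-0.62 to -0.21), Cyp3a44 (-0.86 to -0.22), Cyp3a25 (-0.38 to -0.09), Cyp2f2 (0.10 to 0.52), Cyp2u1 (-0.65 to -0.12), Cyp2j9 (-0.50 to -0.03) and Cyp1a1 (-0.40 to -0.03). The cause was not tested beyond what each setting leaves out. Dim members are limited by signal over background.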

Other observations

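The 5 probe sets whose annotation names several P450 genes belong to no single member. Probe set 10551226, with 2 Cyp2a symbols, read 8.67, 9.93 and 8.46 in GFP-negative and 7.65, 8.82 and 7.86 in GFP-positive arrays, with pair differences of -1.02, -1.11 and -0.60. Probe set 10535669, with 3 Cyp3a symbols, read 9.25, 10.94 and 9.17 against 8.62, 10.12 and 8.53, and probe set 10535683, with 4, had pair differences of -0.59, -0.81 and -0.68. In these 3 probe sets number 2 was highest in both fractions. Probe set 10467390, with 4 Cyp2c symbols, had pair differences of -0.55, -0.14 and -0.50, and probe set 10527494, with 3 Cyp3a symbols, of -0.53, -0.18 and -0.49. All 5 were lower in the GFP-positive array of every pair; they were not part of the fit.

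Outside families 1 to 3, 28 of the 33 genes with 1 number set apart in both fractions were no members. Among them, the metallothionein Mt2 was high in number 2 (11.39 and 10.83, against 7.33 to 7.77), the steroid dehydrogenase Hsd3b5 was low in number 2 (6.13 and 4.99, against 8.12 to 10.17), and Cyp4a12a, a P450 of family 4, was low in number 2 (6.60 and 5.25, against 7.84 to 9.52). Mug2 was low in number 1 (7.48 and 7.47, against 10.66 to 10.98), and Serpina1d was high in number 3 (9.42 and 8.96, against 6.48 to 7.25). These genes were chosen after their values were seen.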
